A study of Homo sapiens with 30 samples.

Results

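The genes described here are 10 members of the bone morphogenetic protein (BMP) pathway: the ligands BMP2, BMP4 and BMP7, the secreted antagonist Noggin (NOG), the target genes ID1, ID2, ID3 and ID4, and the inhibitory SMADs SMAD6 and SMAD7. They were taken by symbol from a table of 60664 genes, and each had 1 row. They were chosen because NOG was lower with tetracycline in the WT line and BMP2 in the WDM line, so those values describe the choice and carry no test. All 10 passed the filter on low counts in each fit. BMPs are secreted dimers that bring type I and type II receptor kinases together at the cell surface. The receptors phosphorylate SMAD1, SMAD5 and SMAD9, which join SMAD4 and act on genes in the nucleus. Noggin binds BMPs outside the cell and keeps them from their receptors. ID1 to ID4 are direct targets in many cell types and encode proteins that capture E proteins such as TCF3 and keep them off DNA, while SMAD6 and SMAD7 are induced by the pathway and inhibit it. BMP signalling is best known in kidney for branching of the ureteric bud and for keeping nephron progenitors, where BMP7 is a main ligand.

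RNA was sequenced from Flp-In T-REx HEK293 cells, a human embryonic kidney line that carries a repressor and a single docking site, so that an inserted gene is switched on by tetracycline. One line held GFP-tagged TIA1a of the wild-type sequence (WT), and the other held the same fusion with the Welander distal myopathy mutation (WDM). Cytosol was taken from untreated cells, from cells given tetracycline (tet), and from cells given tetracycline and 0.5 mM NaAsO2 for 60 min (arsenite). The granule fraction, pulled down through GFP from a high-speed pellet, came from tet and from arsenite cells of both lines. That makes 10 groups of 3 libraries, 18 of cytosol and 12 of granules, and all of them carry the transgene. There are no granules from untreated cells. The labels give 1 line for each genotype and do not say whether it is a clone, so the mutation and any other difference between the lines cannot be told apart. Nothing in the labels says that replicates came from separate cultures, and p-values therefore measure the spread between these libraries, which may be technical.

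Total counts ran from 5906167 to 27419145 per library, and 3 counts, the most that a count of 0 allows, corresponded to 0.109 to 0.508 CPM (counts scaled to a library total of 1000000). These limits cover counting error only. TIA1 itself had 3 counts over 30 libraries and at most 1 in any of them, so the induced gene could not be used to check the labels. Of 9 markers of HEK293 and epithelial cells, 8 were above 1 CPM in each group (NEFM was not). Blood markers summed to 0.148 to 1.55 CPM, with HBB at 0, and endothelial markers to 0.656 to 4.40 CPM. A list of fibroblast and muscle genes summed to 8.59 to 26.3 CPM. Nuclear RNAs (NEAT1, MALAT1 and 3 others) summed to 203 to 861 CPM in cytosol and to 2243 to 3566 CPM in granules. In untreated cytosol these sums were 330 to 402 CPM in WT and 620 to 680 CPM in WDM, without overlap. The ranges of the lines overlapped in tet and in arsenite cytosol. The part of this in the differences between the lines was not tested.

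The promoters of the 4 ID genes and of SMAD6 are shown because these genes, known as BMP targets in many cell types, did not move alike in the comparisons that follow. RefSeq windows (GRCh38.p14) of 250 bases before to 50 after the start were at hand for 7 of the 10 members, in 11 windows. Capitals mark GTCTAGAC, a palindrome that SMADs bind, GGCGCC, a GC-rich SMAD element, and TATAAA, the TATA box, each searched on both strands. The windows lie at chr20:31605039-31605338 (plus strand) for ID1, chr2:8681806-8682105 (plus) for ID2, chr1:23559452-23559751 (minus) for ID3, chr6:19837120-19837419 (plus) for ID4 and chr15:66701986-66702285 (plus) for SMAD6.
ID1: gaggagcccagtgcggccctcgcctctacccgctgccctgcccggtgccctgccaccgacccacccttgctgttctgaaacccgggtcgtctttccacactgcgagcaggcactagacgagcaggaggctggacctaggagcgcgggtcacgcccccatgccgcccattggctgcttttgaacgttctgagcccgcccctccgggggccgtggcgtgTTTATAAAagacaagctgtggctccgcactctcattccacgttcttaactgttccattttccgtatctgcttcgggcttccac
ID2: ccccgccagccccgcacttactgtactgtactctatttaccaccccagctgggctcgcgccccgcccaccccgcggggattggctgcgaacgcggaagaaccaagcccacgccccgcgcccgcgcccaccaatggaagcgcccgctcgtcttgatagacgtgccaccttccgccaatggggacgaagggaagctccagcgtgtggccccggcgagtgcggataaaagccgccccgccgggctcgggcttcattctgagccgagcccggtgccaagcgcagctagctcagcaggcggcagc
ID3: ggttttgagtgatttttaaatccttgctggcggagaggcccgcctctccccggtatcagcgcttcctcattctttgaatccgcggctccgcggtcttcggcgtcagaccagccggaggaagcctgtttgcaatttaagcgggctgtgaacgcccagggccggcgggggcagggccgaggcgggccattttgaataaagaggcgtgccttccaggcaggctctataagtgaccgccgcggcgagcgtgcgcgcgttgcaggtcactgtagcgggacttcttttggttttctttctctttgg
ID4: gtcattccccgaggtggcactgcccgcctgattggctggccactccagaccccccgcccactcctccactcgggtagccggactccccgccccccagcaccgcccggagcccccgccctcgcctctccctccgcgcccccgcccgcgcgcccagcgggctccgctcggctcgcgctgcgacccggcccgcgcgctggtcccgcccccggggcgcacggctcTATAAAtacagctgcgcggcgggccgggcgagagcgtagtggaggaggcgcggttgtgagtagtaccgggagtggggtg
SMAD6: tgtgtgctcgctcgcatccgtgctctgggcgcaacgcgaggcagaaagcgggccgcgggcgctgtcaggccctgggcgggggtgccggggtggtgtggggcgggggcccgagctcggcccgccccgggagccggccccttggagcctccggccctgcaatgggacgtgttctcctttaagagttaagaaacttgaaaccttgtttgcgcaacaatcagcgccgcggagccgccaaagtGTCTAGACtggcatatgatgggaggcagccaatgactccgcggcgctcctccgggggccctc
SMAD6 held GTCTAGAC once, a motif present in 0.202% of 35116 promoter windows of the same length. ID1 and ID4 held TATAAA, present in 11.5% of windows. In ID1 the match occurs on both strands, overlapping as TTTATAAA. None of the 3 motifs was in the ID2 and ID3 windows, and bases outside the windows were not searched. GGCGCC was in 19.2% of all windows and in none of these 5.

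TIA1 is known to bind U-rich stretches of RNA, many of them in 3′ UTRs, so the most T-rich 30 bases of the 3′ UTR are shown for SMAD6 and SMAD7, which were higher in granules than in cytosol in WT tet cells, for ID2, ID3 and NOG, which were far lower in granules of tet cells, and for BMP2. They come from the canonical GENCODE v44 transcripts, with runs of at least 5 T and the AU-rich pentamer ATTTA in capitals.
SMAD6: ttatagTTTTTTTTaaactgtcttcTTTTT
SMAD7: TTTTTTTTTTgtttgttggttggttttctt
ID2: agtgctttgaTTTTTattatgctatgttat
ID3: taatagagtatataggttttgtaccTTTTT
NOG: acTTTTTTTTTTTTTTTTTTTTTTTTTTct
BMP2: gtcagATTTAttttgtATTTATTTActatt
NOG holds an unbroken run of 26 T. Runs of at least 5 T occur in the 3′ UTRs of 79.0% of 18175 genes, with a median longest run of 6. The longest run was 8 in SMAD6, 10 in SMAD7, 10 in ID4, 7 in ID1, and 6 in both ID2 and ID3. BMP2 holds 13 copies of ATTTA in 1157 bases of 3′ UTR, or 11.2 per kb, against a median of 1.67 per kb, and BMP4 holds 10.1 per kb in a 3′ UTR of 296 bases. The ID1 and ID3 UTRs hold 1 copy each.

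On GRCh38, NOG (ENSG00000183691) is a gene of 1 exon at chr17:56593699-56595611 on the plus strand. BMP4 (ENSG00000125378) lies at chr14:53949736-53958761 on the minus strand. ID2 (ENSG00000115738) lies at chr2:8678845-8684461 (plus), ID3 (ENSG00000117318) at chr1:23557926-23559501 (minus) and ID4 (ENSG00000172201) at chr6:19837370-19842197 (plus). SMAD6 (ENSG00000137834) spans chr15:66702236-66782849 (plus) and SMAD7 (ENSG00000101665) chr18:48919853-48950965 (minus). Levels can be compared between genes only per length, as CPM per kilobase of canonical transcript (RPKM). In untreated WT cytosol ID2 stood highest at 68.9 ± 2.53 RPKM (SD, n = 3), followed by ID3 at 46.9 ± 8.27. ID4 (29.3 RPKM) and BMP7 (29.0) came next and their libraries overlapped, then ID1 at 19.3. SMAD7 (7.11 RPKM) and SMAD6 (7.01) overlapped, as did NOG (3.87) and BMP2 (3.52). BMP4 stood lowest at 0.767 RPKM, with only 10 to 20 counts per library. BMP7 was thus the most abundant of the 3 ligands per length. In untreated WDM cytosol the order began the same way, with ID2 at 98.4 RPKM, ID3 at 56.8, ID4 at 38.8, BMP7 at 27.1 and ID1 at 14.6. BMP2, at 9.35 RPKM, stood there between SMAD6 (10.3) and SMAD7 (8.55) and overlapped SMAD7, with NOG at 7.10 and BMP4 at 1.61.

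**Figure D1:**
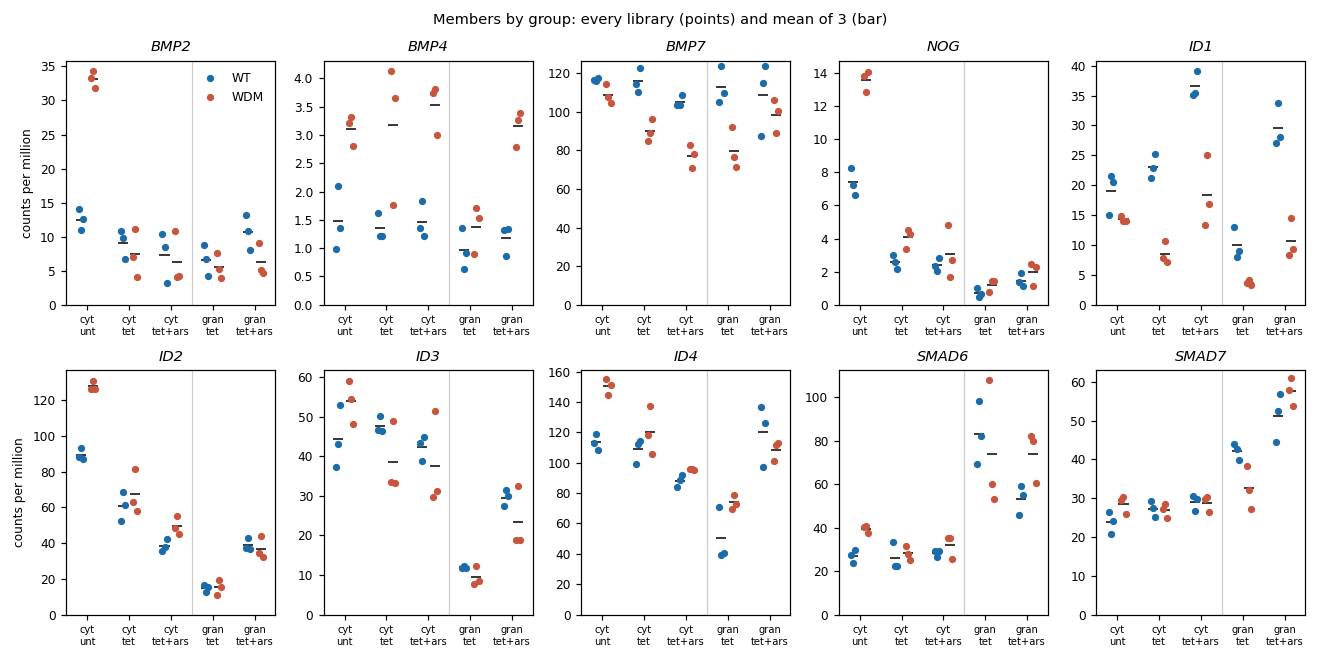
CPM (y axis, linear, from 0) of the 10 genes in each library. Points are libraries, bars are means of 3, blue is WT, red is WDM, and the x axis gives cytosol (cyt) and granule (gran) groups that were untreated (unt) or given tetracycline (tet) or tetracycline and arsenite (tet+ars). NOG and BMP2 stood highest in untreated WDM cytosol, and ID2 and ID3 were lower in tet granules than in any cytosol group.

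Tetracycline, which switches on the GFP-TIA1a fusion, is the contrast that chose these genes and is given without a test. NOG, the antagonist, had 8.28, 7.26 and 6.66 CPM in untreated WT cytosol and 3.03, 2.58 and 2.19 with tet. In WDM it had 13.8, 12.9 and 14.1 CPM untreated and 3.39, 4.53 and 4.29 with tet. In both lines all tet libraries lay below all untreated ones, and the log2 fold changes were −1.46 ± 0.25 (SE) in WT and −1.70 ± 0.22 in WDM. BMP2, a ligand, had 33.3, 34.3 and 31.8 CPM in untreated WDM cytosol and 7.02, 11.1 and 4.08 with tet, a log2 fold change of −2.19 ± 0.40. In WT it had 14.0, 10.9 and 12.5 CPM untreated and 10.9, 9.84 and 6.65 with tet (−0.42 ± 0.41). The WT groups nearly met but did not overlap, with the lowest untreated library at 10.95 CPM and the highest tet library at 10.85. The WDM groups lay far apart. Over all genes, 5.31% were called with tet in WT (2.93% higher and 2.39% lower) and 6.3% in WDM (3.07% and 3.23%), a share from which nothing is read for genes chosen on this contrast.

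Of the other members, ID2 was lower with tet in both lines, with 88.4, 93.2 and 86.9 CPM before and 52.6, 68.6 and 61.1 after in WT (log2 −0.51 ± 0.13). In WDM it had 126, 131 and 126 CPM before and 63.0, 81.7 and 57.7 after (−0.90 ± 0.13). ID1 pointed in opposite directions, at 0.32 ± 0.20 in WT and −0.73 ± 0.22 in WDM. BMP7, ID4 and SMAD6 had no overlap between untreated and tet libraries in WDM, at −0.25, −0.30 and −0.47, and overlapped in WT, at 0.03, −0.02 and −0.00. ID1 and BMP7 lie on chromosome 20, whose median gene was at −0.20 with tet in WDM and 0.02 in WT. In WDM the genes within 5 Mb had medians of −0.27 around BMP7 (5 called lower and 0 higher) and −0.23 around ID1 (14 and 0). The part of this shift in the values of BMP7 and ID1 was not tested. The median over the 10 members was −0.01 in WT and −0.46 in WDM, beside −0.003 and 0.003 over all genes. NOG and BMP2 count in both medians, which therefore describe the choice, and nothing is read from them. BMP4 (−0.08 in WT and 0.05 in WDM) and SMAD7 (0.24 and −0.07) lay close to 0. In bulk libraries, fewer cells of a type and less RNA per cell cannot be told apart.

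Between the lines, BMP4, ID1 and BMP7 differed in the tet and the arsenite cytosol. ID1 had the largest fold of them in tet cytosol and BMP4 in arsenite cytosol. Tests here and below are edgeR's quasi-likelihood F-test with Benjamini-Hochberg adjustment over all genes, and a gene is called at an adjusted p under 0.05. ID1, the classic BMP target, had 21.2, 22.8 and 25.2 CPM in WT tet cytosol and 7.78, 10.7 and 7.15 in WDM. The groups lay far apart, with a log2 fold change of −1.50 ± 0.21 and an adjusted p of 7.56e-05. Arsenite-treated cytosol held ID1 at 35.1, 35.4 and 39.1 CPM in WT and 13.4, 25.0 and 16.8 in WDM, where the second library stood above the other two (−0.99 ± 0.19, adjusted p = 0.00163). In granules the difference was as large, with 13.0, 8.04 and 8.98 CPM in WT tet and 3.57, 4.15 and 3.24 in WDM tet (−1.42 ± 0.25, adjusted p = 0.000321). In arsenite granules ID1 had 27.1, 33.7 and 28.1 CPM in WT and 8.39, 14.5 and 9.34 in WDM (−1.54 ± 0.21, adjusted p = 9.49e-06). These 4 calls held when each library was left out in turn. In untreated cytosol ID1 was not called, at −0.44 ± 0.21 with an adjusted p of 0.197 (−0.44 and 0.00208 when only the untreated libraries were fitted).

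BMP4, a ligand at the low end of the counts, was higher in WDM. In WT cytosol it had 0.985, 2.11 and 1.35 CPM untreated, 1.62, 1.21 and 1.22 with tet, and 1.36, 1.82 and 1.22 with arsenite. In WDM cytosol it had 3.21, 3.31 and 2.80 CPM untreated, 4.14, 1.76 and 3.65 with tet, and 3.74, 3.82 and 3.01 with arsenite, so each WDM library stood above each WT library of the same treatment. The log2 fold changes were 1.04 ± 0.29 untreated (adjusted p = 0.0262), 1.17 ± 0.29 with tet (0.00865) and 1.26 ± 0.27 with arsenite (0.00325). The tet call was lost without the third WDM tet library, and in a fit of the tet libraries alone (adjusted p = 0.0869). In arsenite granules BMP4 had 1.33, 0.86 and 1.34 CPM in WT and 2.80, 3.27 and 3.39 in WDM (1.34 ± 0.29, adjusted p = 0.00403), and in tet granules the difference was 0.66 ± 0.37 and not called.

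BMP7, the abundant ligand, was lower in WDM than in WT with tet and with arsenite. Its values were 115, 110 and 123 CPM in WT tet cytosol and 84.7, 88.9 and 96.3 in WDM, with no overlap (−0.42 ± 0.07, adjusted p = 0.000422). In arsenite cytosol BMP7 stood at 104, 103 and 109 CPM in WT and 82.7, 70.9 and 78.0 in WDM (−0.46 ± 0.07, adjusted p = 0.000172). Both calls held without each library in turn. In tet granules the difference was −0.51 ± 0.15 (adjusted p = 0.0428) and was lost in 5 of the 6 fits that left out a library, the exception being the fit without the first WDM tet library. In arsenite granules it was −0.23 ± 0.15 and not called.

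In untreated cytosol the members called were BMP4, ID2 (0.48 ± 0.13, adjusted p = 0.0176), ID4 (0.37 ± 0.10, 0.0161) and SMAD6 (0.52 ± 0.14, 0.0208), each higher in WDM. ID4 had 113, 119 and 109 CPM in WT and 155, 145 and 151 in WDM. SMAD6 had 27.2, 23.6 and 29.7 CPM in WT and 40.1, 40.8 and 37.5 in WDM. These groups did not overlap. None of the 4 calls remained without the first WT or without the first WDM library, and 1 to 3 of them remained without any other library. BMP2 and NOG were also higher in untreated WDM, at 1.37 ± 0.38 and 0.84 ± 0.21, which the choice of these genes covers, so no test is given. ID1 and BMP7 lay lower in untreated WDM without overlap and were not called (BMP7 −0.13 ± 0.07, adjusted p = 0.275). With only the untreated libraries fitted, both were called lower (BMP7 adjusted p = 0.0368), and SMAD7 was called higher (0.23, adjusted p = 0.035).

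Counted by comparison, 4 of 8 members open to a test were called between the lines in untreated cytosol, all higher in WDM, where 9.78% of all genes were called, 4.19% higher and 5.6% lower. In tet cytosol 1 of 8 was higher and 2 were lower (12.6% of all genes called, 5.79% higher and 6.8% lower), and in arsenite cytosol 1 of 10 was higher and 2 lower (10.4%, 4.98% and 5.37%). In tet granules 2 of 10 were lower and none higher (5.55%, 2.6% higher and 2.95% lower), and in arsenite granules 1 was higher and 2 were lower (7.95%, 4.11% and 3.84%). The lower pair in arsenite granules was ID1 and BMP2, the latter at 13.1, 10.9 and 8.06 CPM in WT and 9.06, 5.09 and 4.70 in WDM. These groups overlapped (−0.88 ± 0.27, adjusted p = 0.0421), and the call was lost without the first WT, the second WDM or the third WDM library. In arsenite cytosol BMP2 differed by −0.21 ± 0.43 and NOG by 0.32 ± 0.26, and neither was called. Over all 10 members, the median log2 fold change was 0.43 in untreated, −0.01 in tet and 0.05 in arsenite cytosol. It was −0.20 in tet and −0.19 in arsenite granules, beside medians over all genes between −0.004 and 0.01. The untreated and tet cytosol medians include BMP2 and NOG, whose values there the choice covers, so nothing is read from those medians.

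ID1, BMP7 and BMP2 lie on chromosome 20, whose median gene was lower in WDM, though not the median of the genes around BMP2. ID1 (ENSG00000125968, chr20:31605283-31606515, plus strand, 2 exons) has 72 tested genes within 5 Mb in cytosol. Their median log2 fold change was −0.40 in tet cytosol, with 30 called lower and 1 higher, and −0.43 in arsenite cytosol, with 38 lower and none higher. ID1 stood below all 72 in tet cytosol and below 69 of them in arsenite cytosol, where 3 were lower still. In tet granules the median of 75 neighbours was −0.37 and in arsenite granules −0.25, and ID1 stood below all of them in both. BMP7 (ENSG00000101144, chr20:57168753-57266641, minus strand, 7 exons) differed by −0.42 in tet cytosol, the same as the median of its 46 neighbours (−0.42, with 19 lower and 2 higher). In arsenite cytosol it differed by −0.46 beside a median of −0.31, and in tet granules by −0.51 beside −0.48. In arsenite granules BMP7 was less low than its neighbours, at −0.23 beside a median of −0.46 (15 lower and 2 higher). BMP2 (ENSG00000125845, chr20:6767686-6780246, plus strand, 3 exons) had neighbours with medians of 0.28 in untreated, 0.12 in tet and 0.05 in arsenite cytosol. Of these neighbours 13 were called higher and 1 lower in untreated cytosol, 5 and 0 in tet, and 4 and 1 in arsenite cytosol. In granules BMP2 differed by −0.20 with tet beside a neighbour median of 0.02, and by −0.88 with arsenite beside 0.14. The medians over chromosome 20 were −0.095, −0.32 and −0.31 in untreated, tet and arsenite cytosol, and the part of this shift in the values of ID1 and BMP7 was not tested.

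**Figure D2:**
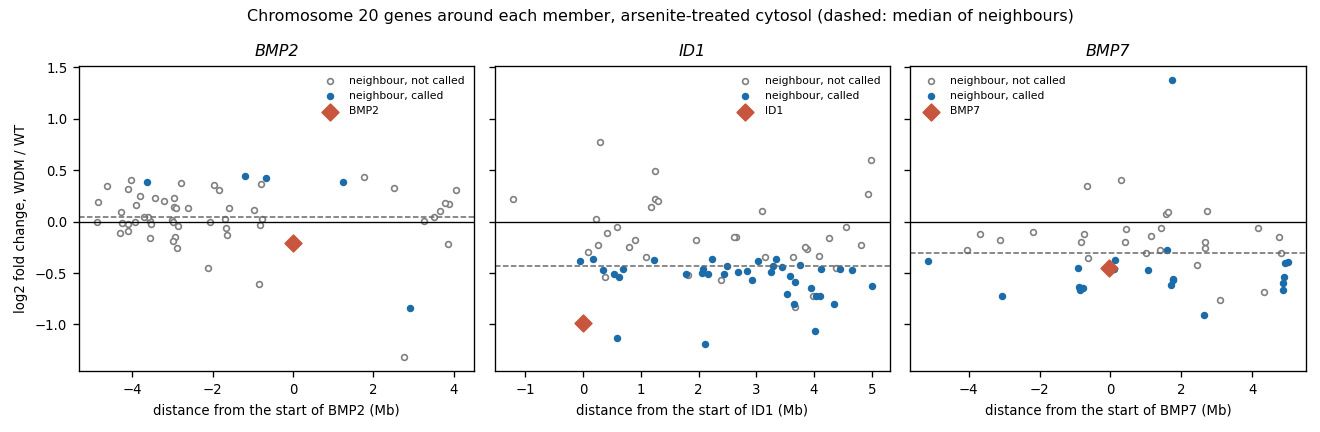
Log2 fold change of WDM against WT in arsenite cytosol (y axis) for the tested genes of chromosome 20 within 5 Mb of BMP2, ID1 and BMP7, by distance from each gene's start in Mb (x axis). Diamonds are the named genes, filled points are called neighbours, open points are neighbours not called, and the dashed line is the median of the neighbours (0.05, −0.43 and −0.31). ID1 lies below nearly all of its neighbours and BMP7 among its own.

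The rest of the pathway was followed in 62 further genes in 6 lists, of which 53 were tested in cytosol and 52 in granules. In untreated cytosol 3 were higher in WDM and 1 lower (9.78% of all genes called), in tet cytosol 2 and 4 (12.6%), and in arsenite cytosol 2 and 2 (10.4%). In tet granules 0 were higher and 2 lower (5.55%), and in arsenite granules 1 and 0 (7.95%). TCF3, 1 of 3 listed E proteins that ID proteins capture, was lower in WDM cytosol throughout, at 91.3 ± 6.49 CPM (SD, n = 3) in WT and 62.0 ± 4.87 in WDM untreated. Its log2 fold changes were −0.59 untreated, −0.64 with tet and −0.66 with arsenite. The other listed E proteins, TCF4 and TCF12, were not called in these comparisons. The median of the 3 was 0.08 untreated, 0.11 with tet and 0.17 with arsenite. ATOH8, another BMP target, was lower in WDM with tet (−1.16 ± 0.33, adjusted p = 0.0261) and with arsenite (−1.43 ± 0.33, adjusted p = 0.00575), at levels of 1.56 and 0.753 CPM with tet. CHRDL1, an antagonist related to chordin, stood at 0.268 ± 0.0658 CPM in untreated WT and 1.97 ± 0.277 in untreated WDM (2.81 ± 0.46, adjusted p = 0.000302). Its WT level lay within the 0.109 to 0.508 CPM that 3 counts correspond to, so the size of this fold is uncertain. SMAD9, a transducer, was at 60.2 ± 4.73 and 96.1 ± 0.594 CPM there (0.64 ± 0.10, adjusted p = 0.00019). Of the receptors and co-receptors none of 11 was called in untreated cytosol, 1 in tet and 2 in arsenite cytosol, one of which was RGMA, a co-receptor (0.50 ± 0.14, adjusted p = 0.03).

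Arsenite, an oxidative stressor that blocks translation and brings stress granules together, changed 4 members in each line's cytosol, and they were the same 4: ID1 rose while ID2, ID4 and BMP7 fell. In WT 1 of 9 members open to a test rose and 3 fell, where 29% of all genes were called (13.7% higher and 15.3% lower). In WDM 1 of 9 rose and 3 fell, where 28.8% were called (14.1% and 14.8%). ID1 went from 21.2, 22.8 and 25.2 CPM with tet to 35.1, 35.4 and 39.1 with arsenite in WT (0.53 ± 0.19, adjusted p = 0.0451). Those groups did not overlap, but the call was lost in all 6 fits that left out a library. In WDM ID1 went from 7.78, 10.7 and 7.15 CPM to 13.4, 25.0 and 16.8, again without overlap (1.04 ± 0.21, adjusted p = 0.00208), and this call held in all 6.

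ID2 went the other way. In WT it had 52.6, 68.6 and 61.1 CPM with tet and 35.8, 37.8 and 42.2 with arsenite, and it fell by 0.79 on the log2 scale (SE 0.13, adjusted p = 0.000256). In WDM it had 63.0, 81.7 and 57.7 CPM with tet and 48.6, 55.2 and 44.8 with arsenite (−0.53 ± 0.13, adjusted p = 0.00525), a call that was lost without the second WDM tet library, the highest of its group. ID4 had 99.5, 113 and 115 CPM with tet in WT and 84.2, 88.5 and 91.7 with arsenite (−0.44 ± 0.10, adjusted p = 0.00255). In WDM ID4 had 118, 137 and 106 CPM with tet and 95.6, 95.7 and 95.4 with arsenite (−0.42 ± 0.10, adjusted p = 0.00348). In both lines the ID2 and ID4 groups did not overlap.

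BMP7 fell by less, by 0.28 on the log2 scale in WT (SE 0.07, adjusted p = 0.00877) and by 0.31 in WDM (SE 0.07, adjusted p = 0.00421). The WT call was lost without the third WT tet library and with library size alone as the scaling (−0.14, adjusted p = 0.155). With only the groups compared in the fit, the calls were lost in WT (adjusted p = 0.0665) and in WDM (0.066). Neither line had a called change in BMP4, ID3, SMAD6 or SMAD7. NOG, open to a test in WDM, had 3.39, 4.53 and 4.29 CPM with tet and 4.79, 1.67 and 2.71 with arsenite, which overlapped (−0.53 ± 0.25, adjusted p = 0.11). BMP2, open to a test in WT, had 10.9, 9.84 and 6.65 CPM and 10.3, 8.41 and 3.20 (−0.46 ± 0.42, adjusted p = 0.435). The median over members was −0.26 in WT and −0.20 in WDM, beside −0.02 and −0.004 over all genes. These medians include NOG in WT and BMP2 in WDM, which are not open to a test there. Of all calls, 47.2% were higher in WT and 48.8% in WDM, against 76.5% and 66.6% with library size alone, which moved the median of all genes in WT to 0.11.

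The difference between the lines in the arsenite response was tested as an interaction. With edgeR 0 of 8 members open to a test were called in cytosol, none had an unadjusted p under 0.05, and DESeq2 called 0. For ID1 the interaction was 0.51 ± 0.29. Over all genes 0% were called there (332 of 16670 at an unadjusted p under 0.05, and 0 with DESeq2). In granules edgeR called 0 of 10 members and DESeq2 0, with ID4 (−0.81 ± 0.28, adjusted p = 0.269), SMAD6 (0.59 ± 0.28, 0.374) and SMAD7 (0.47 ± 0.22, 0.382) under an unadjusted 0.05. Over all genes 0% were called (2329 of 18366 at an unadjusted p under 0.05, and 9 with DESeq2).

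Of the other pathway genes, arsenite raised 6 and lowered 10 of 53 in WT cytosol, and raised 10 and lowered 10 in WDM, where 29% and 28.8% of all genes were called. The other target genes, JUNB, RUNX2 and GATA2 among them, included 2 of 10 that rose and 1 that fell in WT, and in WDM 5 rose and 1 fell. JUNB, a transcription factor gene that responds to BMP and to stress, rose from 15.6 ± 2.44 to 40.4 ± 4.62 CPM in WT (1.24 ± 0.13, adjusted p = 8.16e-06) and from 11.3 ± 1.03 to 33.2 ± 1.89 CPM in WDM (1.47 ± 0.14, adjusted p = 1.57e-06). RUNX2, a transcription factor of bone formation, rose in WT from 5.60 ± 2.70 to 12.4 ± 1.76 CPM. Antagonists had 4 of 10 lower and 0 higher in WT and 4 lower and 1 higher in WDM. BMP3, a ligand that can oppose the others, fell by 0.80 on the log2 scale in WT (SE 0.15, adjusted p = 0.000599).

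**Figure D3:**
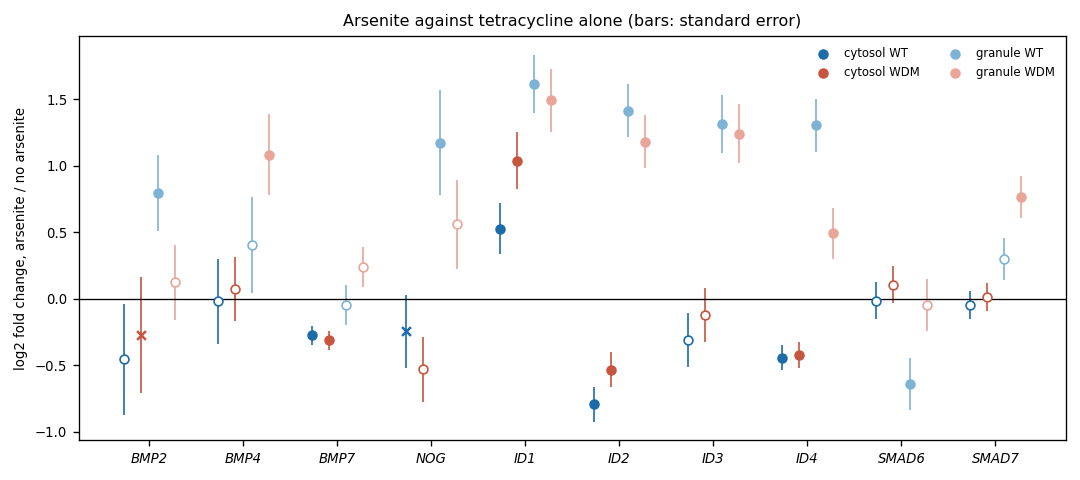
Log2 fold change of arsenite against tet alone (y axis) for each gene (x axis), in cytosol and granules of both lines. Filled points are called, open points are not called, crosses are genes with no test because the libraries chose them, and bars are standard errors. ID2 lies at −0.79 and −0.53 in cytosol and at 1.41 and 1.18 in granules, while ID1 is above 0 in all 4.

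In granules arsenite raised all 4 ID genes in both lines, also those that fell in cytosol. ID1 went from 13.0, 8.04 and 8.98 CPM in WT tet granules to 27.1, 33.7 and 28.1 with arsenite (1.62 ± 0.22, adjusted p = 1.05e-05). In WDM granules it went from 3.57, 4.15 and 3.24 CPM to 8.39, 14.5 and 9.34 (1.49 ± 0.24, adjusted p = 2.7e-05). ID2 went from 16.3, 12.7 and 15.4 CPM to 37.1, 42.7 and 36.6 in WT (1.41 ± 0.20, adjusted p = 1.6e-05), and from 11.0, 19.5 and 15.5 to 34.4, 44.1 and 32.0 in WDM (1.18 ± 0.20, adjusted p = 4.65e-05). ID3 went from 11.9, 12.3 and 11.9 CPM to 27.4, 31.4 and 30.0 in WT (1.32 ± 0.22, adjusted p = 8.91e-05), and from 7.63, 12.3 and 8.39 to 18.9, 32.6 and 18.9 in WDM (1.24 ± 0.22, adjusted p = 9.88e-05). For these 3 genes each arsenite library lay above each tet library of its line, and the calls held without each library in turn.

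ID4 went from 70.8, 39.3 and 40.6 CPM to 137, 97.0 and 126 in WT granules (1.30 ± 0.20, adjusted p = 3.56e-05). The high tet value is that of the first library, the smallest of the series at 5906167 counts. In WDM ID4 went from 69.7, 78.7 and 73.2 CPM to 101, 112 and 113 (0.49 ± 0.19, adjusted p = 0.0476). That call was lost in 5 of 6 fits without a library, the exception being the fit without the first WDM arsenite library. It was also lost with RLE factors (adjusted p = 0.0591) and in DESeq2 (0.0696).

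Among the remaining members, granule BMP4 rose in WDM (1.08 ± 0.31, adjusted p = 0.00684), from 0.892, 1.71 and 1.53 CPM to 2.80, 3.27 and 3.39. It was not called in WT, at 0.40 ± 0.36. SMAD7, which targets BMP and TGF-β receptors for degradation, rose in WDM from 38.2, 32.1 and 27.3 CPM to 57.9, 60.9 and 53.8 (0.76 ± 0.16, adjusted p = 0.000453). In WT SMAD7 was not called (0.30 ± 0.16, adjusted p = 0.147), though each arsenite library lay above each tet library. SMAD6, which acts chiefly against BMP receptors and SMAD1, fell in WT from 69.4, 98.2 and 82.0 CPM to 45.6, 59.1 and 55.0 (−0.64 ± 0.20, adjusted p = 0.0145), a call lost without the second WT tet or the first WT arsenite library. In WDM it had 108, 60.0 and 53.4 CPM and 82.3, 79.7 and 60.4, which overlapped (−0.05 ± 0.19). NOG rose in WT granules from 1.02, 0.469 and 0.636 CPM to 1.38, 1.89 and 1.11 (1.17 ± 0.39, adjusted p = 0.0242), and the call held in 2 of 6 fits without a library. It was lost without the second or the third WT tet library and without the first or second WT arsenite library. In WDM NOG differed by 0.56 ± 0.34 (adjusted p = 0.199). BMP2 rose in WT granules from 8.80, 6.72 and 4.17 CPM to 13.1, 10.9 and 8.06, groups that overlapped (0.80 ± 0.28, adjusted p = 0.0339). The call was lost without the second or the third WT tet or the first WT arsenite library, and in WDM the difference was 0.12 ± 0.28 (adjusted p = 0.766).

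In all, 6 of 10 members rose and 1 fell in WT granules, where 30.6% of all genes were called (16.5% higher and 14.1% lower), and 6 rose in WDM granules, where 36.3% were called (18.7% and 17.7%). The median over members was 0.98 in WT and 0.66 in WDM, beside −0.03 and 0.01 over all genes. ID1, ID2 and ID3 have short transcripts of 983, 1299 and 950 nt. Genes with transcripts under 1500 nt had a median of −0.22 in WT and −0.13 in WDM in this comparison. Of the other pathway genes 24 rose and 2 fell of 52 in WT, and 23 rose and 2 fell in WDM. The ligands had 5 higher and 1 lower of 7 in WT, and the other target genes 6 higher and none lower of 10 in both lines. GATA2, a transcription factor gene, rose from 6.16 ± 1.43 to 16.2 ± 3.28 CPM in WT and from 5.43 ± 1.36 to 18.3 ± 3.14 in WDM. TOB1, which binds SMADs and the deadenylase complex, rose from 11.0 ± 2.76 to 32.6 ± 2.15 CPM in WT (1.62 ± 0.21, adjusted p = 6.34e-06). FST, the secreted antagonist follistatin, rose in WT from 0.877 ± 0.123 to 3.18 ± 0.233 CPM (1.92 ± 0.35, adjusted p = 0.000236).

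Against cytosol of the same cells, the granule fraction of tet cells held less of the ID genes and NOG and more of SMAD6. Between 70.5% and 75.7% of all genes were called in these 4 comparisons, so a call by itself says little about the members, and the sizes are given. In WT tet cells ID2 had 52.6, 68.6 and 61.1 CPM in cytosol and 16.3, 12.7 and 15.4 in granules, a log2 fold change of −2.09 ± 0.19 (adjusted p = 8.91e-11). ID3 had 46.6, 50.3 and 46.5 CPM in cytosol and 11.9, 12.3 and 11.9 in granules (−2.03 ± 0.24, adjusted p = 1.94e-08). WDM tet cells gave −2.12 ± 0.19 for ID2 and −2.02 ± 0.24 for ID3. ID1 was at −1.29 ± 0.23 in WT and −1.21 ± 0.26 in WDM, and ID4 at −1.19 ± 0.17 and −0.71 ± 0.17, all called. NOG was at −1.70 ± 0.33 in WDM (adjusted p = 4.63e-05), and at −2.03 ± 0.39 in WT, where it has no test.

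SMAD6 had 33.4, 22.4 and 22.4 CPM in WT tet cytosol and 69.4, 98.2 and 82.0 in granules, the largest difference upward among the members (1.65 ± 0.20, adjusted p = 1.77e-08). In WDM tet cells it was 1.36 ± 0.20 (adjusted p = 6.18e-07). With arsenite it was 0.91 ± 0.19 in WT and 1.14 ± 0.19 in WDM, called in both. SMAD7 was at 0.59 ± 0.13 in WT tet cells, 0.82 ± 0.13 in WT arsenite cells and 0.94 ± 0.12 in WDM arsenite cells, each called. In WDM tet cells it was at 0.26 ± 0.13 with an adjusted p of 0.0712 (0.0432 in DESeq2). The summed nuclear RNAs were higher in the granule libraries of each group than in any cytosol library, and their part in these values was not tested.

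Of the ligands, BMP7 had nearly the same level in both fractions, at −0.08 ± 0.12 in WT tet and −0.18 ± 0.12 in WDM tet cells, and 0.05 ± 0.12 in WT arsenite cells. In WDM arsenite cells it was at 0.29 ± 0.12 (adjusted p = 0.0304), a call lost in 4 of 6 fits without a library, namely without the second or the third WDM cytosol or the first or the third WDM granule library. BMP4 was lower in WDM tet granules, at −1.15 ± 0.31 (adjusted p = 0.00148), and at −0.62 ± 0.37 in WT and not called. BMP2 was at −0.59 ± 0.44 in WT tet cells (adjusted p = 0.222), and with arsenite at 0.56 ± 0.41 in WT (0.231) and −0.08 ± 0.42 in WDM (0.868). With the replicate number as a block in the edgeR fit, BMP2 was called in WT. It was then at −0.54 with tet (adjusted p = 0.0473) and at 0.63 with arsenite (0.0191). The labels do not tie these numbers to a batch. Transcript length and the granule difference were related across 18092 genes, with Spearman's rho between 0.213 and 0.354, and genes under 1500 nt had medians between −0.50 and −0.18. The part of length in the members' values was not tested.

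**Figure D4:**
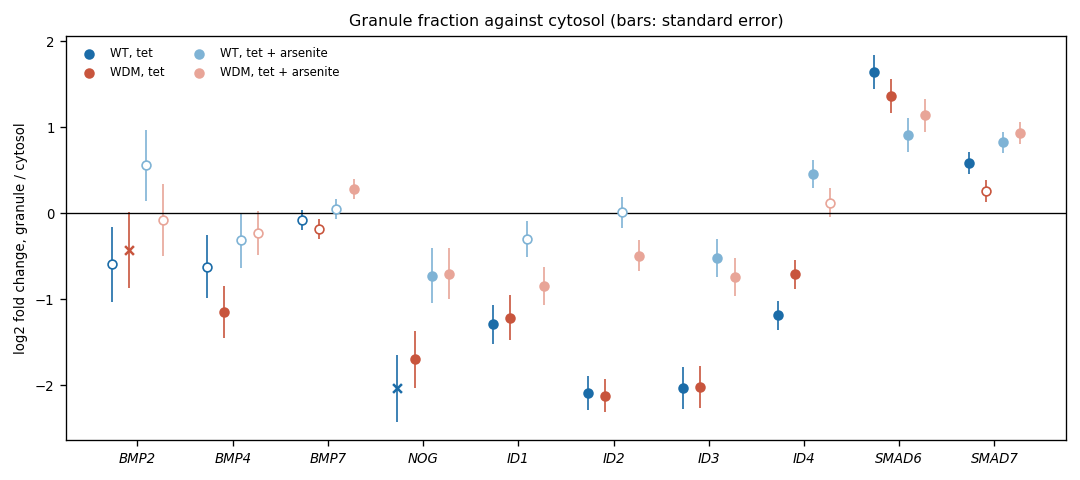
Log2 fold change of granules against cytosol of the same cells (y axis) for each gene (x axis), in WT and WDM cells with tet alone (dark) or with arsenite (light). Filled points are called, open points are not called, crosses are genes with no test because the libraries chose them, and bars are standard errors. ID2 and ID3 lie near −2 with tet alone and nearer 0 with arsenite, and SMAD6 lies above 0 in all 4.

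With arsenite the ID genes stood closer to their cytosol levels. In WT cells ID2 had 35.8, 37.8 and 42.2 CPM in cytosol and 37.1, 42.7 and 36.6 in granules, which overlapped (0.01 ± 0.18, adjusted p = 0.962). ID1 was at −0.30 ± 0.21 (adjusted p = 0.197) and ID3 at −0.52 ± 0.22 (0.0401), while ID4 was higher in granules, at 0.46 ± 0.17 (0.0163). In WDM cells ID1 (−0.84 ± 0.22, adjusted p = 0.00112), ID2 (−0.49 ± 0.18, 0.0154) and ID3 (−0.74 ± 0.22, 0.00436) were still lower in granules. NOG was lower in both, at −0.72 ± 0.32 in WT (adjusted p = 0.0449) and −0.70 ± 0.29 in WDM (0.0349). In WT the calls of ID3 and NOG were lost with RLE factors and in DESeq2. ID3 kept its call only without the second cytosol library, NOG lost its call without the first or the third library of either fraction, and ID4 lost its call without the first or second cytosol or the first granule library. In WDM the ID2 call was lost without the second cytosol or the first or the third granule library, the ID3 call without the second cytosol library, and the NOG call without the first cytosol or second granule library and in DESeq2 (adjusted p = 0.053).

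The change of the granule difference with arsenite was tested as an interaction of fraction and arsenite, a comparison chosen after seeing the data. In WT it was 2.10 ± 0.26 for ID2 (adjusted p = 4.51e-06), 1.64 ± 0.24 for ID4 (1.73e-05), 1.52 ± 0.32 for ID3 (0.000985) and 0.99 ± 0.31 for ID1 (0.0155). In WDM it was 1.63 ± 0.26 for ID2 (0.00011), 1.28 ± 0.33 for ID3 (0.0056) and 0.83 ± 0.24 for ID4 (0.0111), and 0.37 ± 0.34 for ID1 (0.457). The ID1 call in WT was lost without the third WT tet granule library. SMAD7 moved by 0.68 ± 0.18 in WDM (adjusted p = 0.00669) and BMP7 by 0.47 ± 0.17 (0.0385), and SMAD6 by −0.73 ± 0.27 in WT (0.0418). The BMP7 call was lost in 8 and the SMAD6 call in 9 of 12 fits without a library. In WT 4 of 9 members were called higher and 1 lower (31.4% of all genes called, 12% higher and 19.4% lower), and in WDM 5 of 9 higher and none lower (24.1%, 7.66% and 16.5%). The members' median was 1.07 in WT and 0.75 in WDM, beside −0.21 and −0.17 over all genes. Both medians are over all 10 members, with NOG untested in WT and BMP2 untested in WDM. In the same comparison genes under 1500 nt had medians of −0.45 and −0.39. This interaction and the arsenite comparisons within a fraction share libraries and are not independent.

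By comparison of fractions, 2 members were higher and 4 lower of 9 open to a test in WT tet cells (75.7% of all genes called, 39.5% higher and 36.2% lower), and 1 higher and 6 lower of 9 in WDM tet cells (71.1%, 35.8% and 35.3%). With arsenite 3 were higher and 2 lower of 10 in WT (70.5%, 35% and 35.5%), and 3 higher and 4 lower of 10 in WDM (72%, 36.3% and 35.7%). The members' medians were −0.90, −0.93, 0.03 and −0.15 in that order, beside 0.07, 0.02, 0.05 and 0.06 over all genes. These are over all 10 members, so those of tet cells include NOG in WT and BMP2 in WDM, untested there. Of the 53 other pathway genes, 23 were higher and 16 lower in WT tet cells and likewise in WDM, 36 and 11 in WT arsenite cells, and 29 and 10 in WDM arsenite cells. Receptors and co-receptors had 8 higher and 2 lower of 11 in WT tet cells, and antagonists 2 higher and 6 lower of 10. SKI, a repressor that binds SMADs, had 51.4 ± 30.4 CPM in WT tet cytosol and 399 ± 115 in granules (2.92 ± 0.30, adjusted p = 3.14e-09). RUNX2 had 5.60 ± 2.70 and 35.9 ± 6.18 CPM (2.65 ± 0.25, adjusted p = 1.9e-10). HJV, the co-receptor hemojuvelin, had 3.12 ± 0.961 and 0.475 ± 0.2 CPM (−2.97 ± 0.39, adjusted p = 7.98e-08). Its mean granule level lay within the 0.109 to 0.508 CPM that 3 counts correspond to, so the size of this fold is uncertain.

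The genes most like NOG, BMP2 and ID1 over the 18 cytosol libraries, by Pearson's r of log2 CPM among 11337 genes, are given as a description, since libraries of 6 groups share treatments and lines. For NOG they were TCTN1 (r = 0.95), TDP1 (0.949) and IGFBP5 (0.945). IGFBP5, a secreted binder of insulin-like growth factors, had group means of 50.1 CPM in untreated WT, 77.4 in untreated WDM, 24.3 and 35.9 with tet, and 17.4 and 27.4 with arsenite. Like NOG it was highest in untreated WDM cytosol and lower with tet in both lines. IGFBP5 was picked for its likeness to NOG over these same libraries, so the shared pattern follows from the pick and nothing is read from it. For BMP2 they were CDCA7 (r = 0.838), MTX2 (0.832) and ABCB8 (0.83). For ID1 they were FAM83D (r = 0.959), RBM39 (0.955) and OSER1 (0.936), all 3 on chromosome 20 as ID1 is.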

How the data were processed

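Counts were taken from 30 RNA-seq libraries in 10 groups of 3, grouped by their titles. The authors deposited raw read counts per gene in 1 table, and per the labels' protocols the libraries were stranded total RNA after rRNA removal. The submitters' processing notes list Trimmomatic, STAR, Picard, featureCounts and GRCh38, with no versions. The strand setting and annotation release are not given in the sources used here. Of 60664 identifiers, 20055 carry no symbol. In GENCODE v44, 60463 were found and 56693 had the same start and end, those of all 10 members among them, and no member's exons overlapped another gene's.

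Tests used edgeR 4.0.16 under R 4.3.3 on these deposited counts (filterByExpr with minimum count 10 and minimum total 15, TMM, robust quasi-likelihood fit, Benjamini-Hochberg over all genes, called under 0.05). Fits held the 18 cytosol libraries (16670 genes), the 12 granule libraries (18366) or the 24 tetracycline-treated libraries (18141). The biological coefficients of variation were 0.103, 0.161 and 0.145. SE is the absolute log2 fold change over the root of F. CPM used the library total. Within groups, pairs of libraries differed with a chi-square of 1.63 to 40.7 per degree of freedom, so no library looked deposited a second time. There were 19 comparisons, 4 of them interactions.

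The members and gene lists were chosen with earlier results of these data known. NOG and BMP2 carry no test where the comparison uses the untreated or tetracycline-only cytosol libraries of the line each was chosen in. Named genes are the members, up to 3 called pathway genes per comparison with the largest absolute log2 fold change, and the 3 genes most like NOG, BMP2 and ID1 by Pearson's r (mean of at least 5 CPM). As alternatives, DESeq2 1.42.0, a replicate block, fits restricted to the compared groups, omission of single libraries, RLE factors, unscaled library sizes and the unfiltered table were used.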

Additional observations from a re-analysis of the deposited data

How the results depend on the processing

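Counts of called members under the alternatives were within 1.5 times the reported count in 203 of 227 settings. The exceptions outside fits without a library were 7 in untreated cytosol between the lines with only the groups compared (4 reported), 1 in tet granules between the lines with library size alone, with the replicate block and with only the groups compared (2 reported), and 3 for WT arsenite granules against cytosol with RLE factors and with DESeq2 (5 reported). Without each library in turn, the counts ran from 0 to 3 between the lines in untreated cytosol, 2 to 3 for arsenite in WT cytosol, 1 to 2 between the lines in tet granules, 4 to 7 for arsenite in WT granules, 2 to 4 for WT and 4 to 6 for WDM arsenite granules against cytosol, and 3 to 5 for the WT change of the granule difference with arsenite. Of 1287 settings over named member values, 1133 kept the direction and side of the threshold, 118 lost a call, 20 gained one and 16 changed sign, none of them called in either fit. Without a library, BMP2 ran from −0.82 to 0.12 and NOG from −0.15 to 0.62 between the lines in arsenite cytosol. With arsenite in WDM granules BMP2 ran from −0.17 to 0.35 and SMAD6 from −0.22 to 0.29, and SMAD6 was at 0.010 with library size alone and at 0.0096 with no low-count filter. Granules against cytosol ran from −0.069 to 0.054 for ID2 in WT arsenite cells and from −0.38 to 0.50 for BMP2 in WDM arsenite cells, with 0.0020 for BMP2 with no low-count filter. The cause of these changes was not tested.

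Over all genes, 5463 were called between the lines in untreated cytosol with only the groups compared against 1631, and 930 without the third WT untreated library. In tet cytosol the count was 2099, against 852 with only the groups compared, 1209 without the third WDM tet library and 4571 without the first WT tet library. In arsenite cytosol it was 1726 and 1094 without the third WT arsenite library. For arsenite in cytosol it was 4832 in WT and 4805 in WDM, against 2734 and 1920 with only the groups compared. Without a library it ran from 2439 to 7207 in WT and from 2492 to 5246 in WDM. In granules it was 1019 between the lines with tet and 571 without the third WDM tet library, 1460 with arsenite and 569 without the first WT arsenite library, and 5620 for arsenite in WT and 3157 without the third WT tet library. The interaction in granules gave 0 genes, and 44 with no low-count filter. With library size alone, calls between the lines in arsenite granules were 66.0% higher against 51.7%.

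Nothing in the labels says that a replicate number marks a shared batch or culture, so the numbers were not used to pair libraries. Deviations of same-numbered libraries correlated at −0.125 to 0.515 in cytosol (median 0.018, over 0.1 in 16 of 45, against 8 of 90 between other numbers) and at −0.360 to 0.512 in granules (median −0.052, 7 of 18, against 16 of 36). With the replicate block, ID4 with arsenite in WDM granules lost its call (adjusted p = 0.0536), as did BMP7 between the lines in tet granules (0.0674), while BMP2 gained one in WT granules against cytosol with tet (−0.54, adjusted p = 0.0473) and with arsenite (0.63, 0.0191), and in its change with arsenite in WT (1.17, 0.00935). ID2 gained one between the lines in arsenite cytosol (0.35, 0.0324). The fit of only the compared groups was the reported fit for the granule interaction and was not run again. Depth limits BMP4 and NOG most, at 8 to 93 and 6 to 198 counts per library.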

Other observations

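The libraries of a group stood in a like order for BMP2 in most groups. The library numbered 1 held the highest BMP2 level in 8 of 10 groups and the library numbered 3 the lowest in 8 of 10. In arsenite cytosol the numbered libraries had 10.3, 8.41 and 3.20 CPM in WT and 10.8, 4.00 and 4.21 in WDM. For ID2 the library numbered 2 was highest in 8 of 10 groups, and for ID3 in 7 of 10. For BMP4 no number was highest in more than 5 groups. In arsenite WDM cytosol the second library had the highest ID1 (25.0 CPM), ID2 (55.2) and ID3 (51.6), while ID4 stood at 95.6, 95.7 and 95.4 CPM in the same 3 libraries. These are values only, and no test was run on them.

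Some genes of the pathway had too few counts to test. Of 62 listed genes beside the 10 members, 9 did not pass the filter on low counts in cytosol, 3 of them ligands, 5 antagonists and 1 a receptor or co-receptor.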
